A study of Ginkgo biloba with 7 samples.

Results

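The 152 transcripts described here were abundant in Ginkgo biloba ovules while the pollination drop was being secreted and stood at least 4-fold lower in ovules 1 day after pollination. They were selected on 2 values per gene. The level had to be at least 20 FPKM (fragment counts corrected for the length of the gene and the size of the library) in the secreting library PD1, and the ratio of FPKM + 1 in PD1 to FPKM + 1 in the pollinated library PN1 had to be at least 4. Of 43456 genes listed, 163 met both conditions, and 11 of these were left out because they stand in the series' list of miRNA target genes. The whole difference between the stages was therefore used in choosing the genes, so the levels below are a description of these 2 libraries and carry no test.

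The series compared ovules of the cultivar Fozhi, taken from several trees grown under natural conditions, with no treatment or genotype named apart from the stage. PD is the mature ovule secreting its pollination drop, and PN is the ovule 1 day after pollination. The labels give 2 mRNA libraries per stage, PD1 and PD2 against PN1 and PN2. The heading PD2 stands over 2 columns of the gene table, so their samples could not be told from their names, and PD1 and PN1 alone were used. Each level is thus a single value without replicate error. Stage cannot be told apart from other differences between the ovules of the 2 libraries, and fewer cells of a type cannot be told apart from less RNA per cell.

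In gymnosperms the pollination drop is a watery secretion of the ovule that is exposed at the micropyle, the opening of the integument. It catches airborne pollen and is then withdrawn, which carries the pollen into the ovule. Drops are known to hold sugars, amino acids and proteins, among them defence proteins and enzymes that act on carbohydrates. The deposited files do not pair these gene IDs with names or functions, so it was not tested whether any of the 152 genes encodes a drop protein, and no marker gene could be read to check the tissue.

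The 152 genes held a larger part of the summed FPKM in the secreting library than in the pollinated one, as the rule requires. Their FPKM summed to 64704 in PD1 and to 7183 in PN1, a 9.01-fold difference. The rule fixed the direction of this difference and a minimum of 4-fold. As a share of the summed FPKM of all genes, the set held 5.91% in PD1 and 0.683% in PN1. The median gene of the set stood at 57.7 FPKM in PD1 (quartiles 33.3 and 172) and at 7.09 FPKM in PN1 (quartiles 3.59 and 23.5). The levels in PD1 ran from 20.5 to 12391 FPKM and those in PN1 from 0 to 1721 FPKM.

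**Figure D1:**
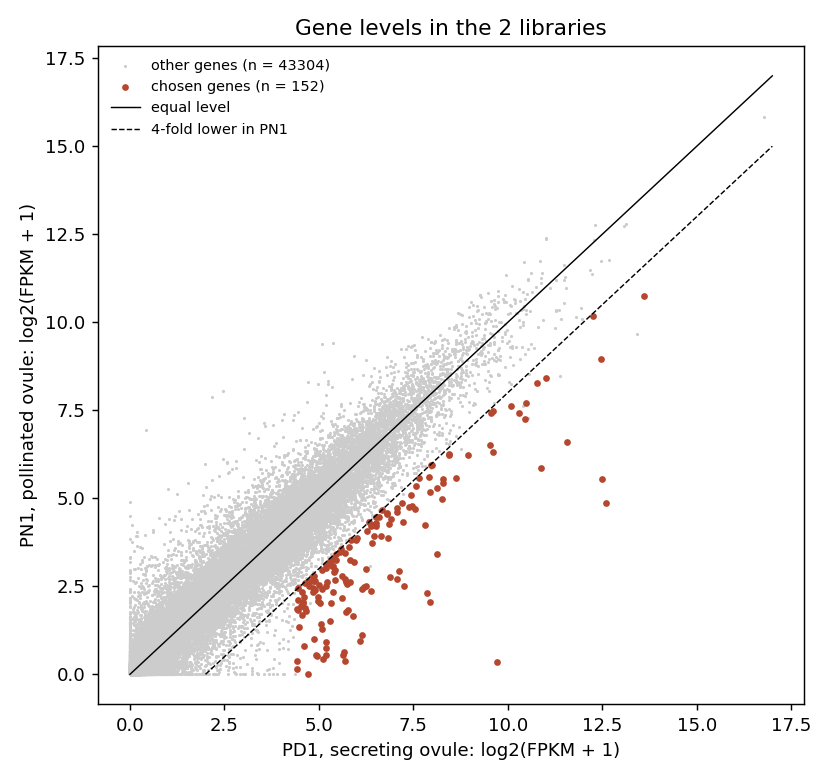
Level of every gene in PD1 (horizontal) and PN1 (vertical), both as log2(FPKM + 1); red points are the 152 chosen genes, grey points the other 43304. The solid line marks equal levels and the dashed line a 4-fold lower level in PN1; the chosen genes lie on or below the dashed line by the way they were selected, and 3 of them lie more than 100-fold below equality.

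A small number of very abundant transcripts carried most of this sum. The 5 most abundant genes of the set held 53.9% of its summed FPKM in PD1, and the 10 most abundant held 69.6%. The first of them, Gb_11716, was listed at 12391 FPKM in PD1 and at 1721 FPKM in PN1, 7.20-fold lower on the FPKM + 1 scale. It was the second most abundant gene of the whole PD1 library and ranked 38 in PN1, so it remained a highly abundant transcript in the pollinated ovule. Gb_24476 stood at 6232 FPKM in PD1, where it ranked 7, and at 28.2 FPKM in PN1, where it ranked 6164. Both genes were among the most abundant of PD1, but their folds differed widely, 214 for Gb_24476 against 7.20 for Gb_11716.

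The folds of the next genes in order of abundance also differed widely. The third was listed at 5710 FPKM in PD1 and 45.4 FPKM in PN1, 123-fold lower. The fourth was listed at 5682 FPKM and 496 FPKM, 11.4-fold lower. The fifth, a gene model whose ID lacks the prefix Gb, stood at 4879 FPKM and 1156 FPKM, 4.22-fold lower and thus close to the limit of 4. In the PD1 library 4 of the 10 most abundant genes belonged to the set, and in the PN1 library 0 did. Among the 100 most abundant genes the numbers were 13 in PD1 and 2 in PN1. The rule asked for high levels in PD1 and lower ones in PN1, so it sets the direction of these differences.

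**Figure D2:**
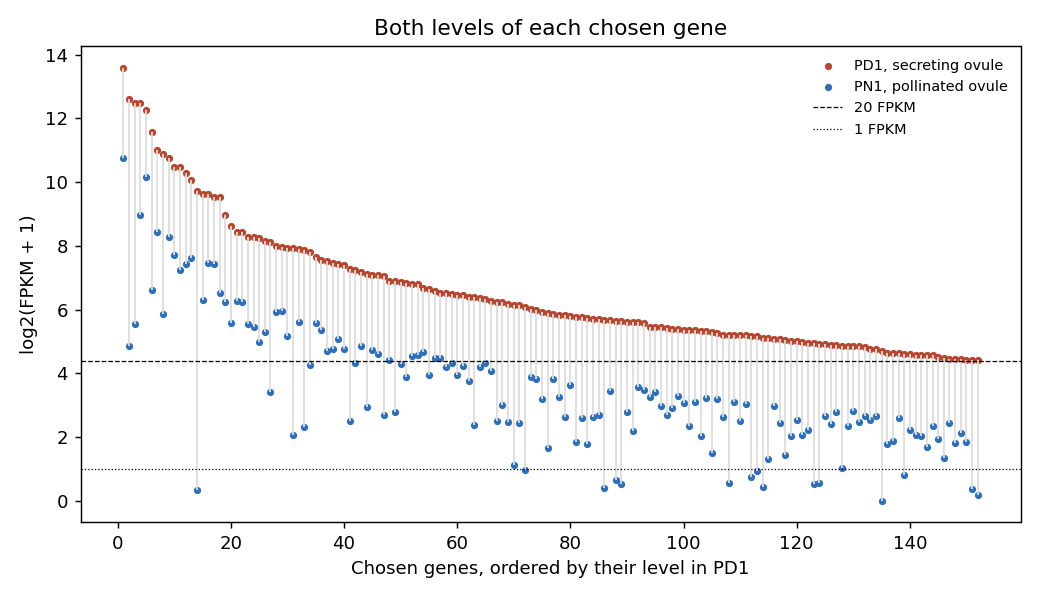
Level of each of the 152 genes in PD1 (red) and PN1 (blue) as log2(FPKM + 1), ordered by the level in PD1, with a grey line joining the values of a gene. The dashed line marks 20 FPKM and the dotted line 1 FPKM; the blue points of 44 genes lie on or above the dashed line and those of 15 genes lie below the dotted line.

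At the 20 FPKM that the selection asked for, most of these transcripts were abundant in PD1 alone, but the rule sets much of this count. A gene not far above 20 FPKM in PD1 had to be below 20 FPKM in PN1 to be 4-fold lower there. Of the 98 genes of 20 to 100 FPKM in PD1, 2 were at 20 FPKM or more in PN1. This held for 29 of the 41 genes of 100 to 1000 FPKM and all 13 of 1000 FPKM or more. Few genes were near 0 after pollination. In PN1, 108 of the 152 genes were below 20 FPKM. The other 44 genes (28.9%) were still at 20 FPKM or more, and 11 of them were at 100 FPKM or more. At the other end, 15 genes (9.87%) were under 1 FPKM in PN1, and 1 of these was listed at 0, with 24.97 FPKM in PD1. The remaining genes had intermediate levels, 42 of them between 1 and 5 FPKM and 51 between 5 and 20 FPKM. A description as abundant during secretion alone thus holds at this limit for 108 genes and not for the other 44, and 137 of the 152 genes were still at 1 FPKM or more in PN1.

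The 15 genes under 1 FPKM in PN1 came mainly from the less abundant end of the set. Their median in PD1 was 35.1 FPKM, against 57.7 FPKM for the whole set, and together they held 1341 of its 64704 FPKM. The exception was the gene with the largest fold of all, which was listed at 838 FPKM in PD1 and 0.263 FPKM in PN1, 664-fold lower on the FPKM + 1 scale. Conversely, the 44 genes still at 20 FPKM or more in PN1 had a median of 311 FPKM in PD1 and none was under 91.0 FPKM there. Since the selection required a 4-fold difference, a gene at 20 FPKM in PN1 had to be high in PD1, and this relation is fixed by the rule.

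**Figure D3:**
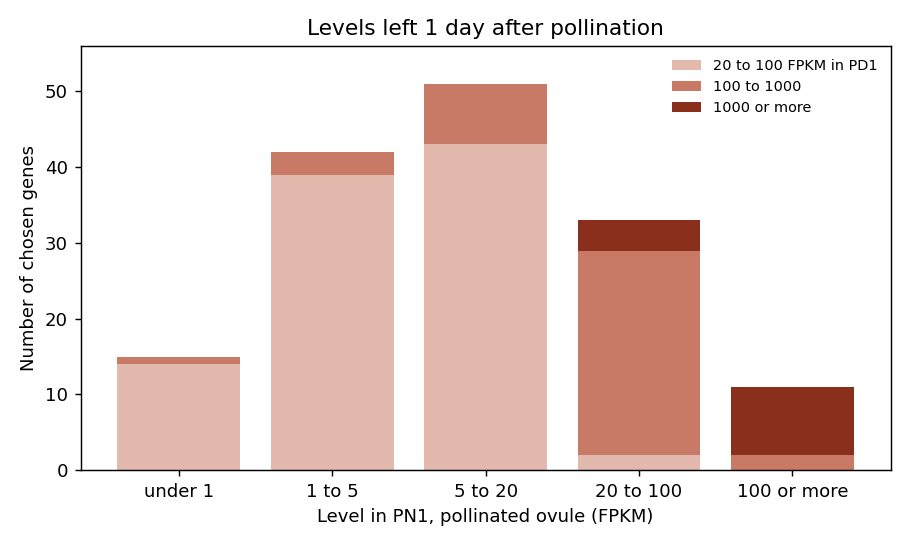
Number of the 152 genes (vertical) by their level in PN1 in FPKM (horizontal), with shades for their level in PD1. Of the 13 genes of at least 1000 FPKM in PD1, 9 were at 100 FPKM or more and 4 at 20 to 100 FPKM in PN1, whereas 14 of the 15 genes under 1 FPKM in PN1 came from those of 20 to 100 FPKM in PD1.

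By abundance in PD1, 13 genes stood at 1000 FPKM or more, 41 between 100 and 1000 FPKM, and 98 between 20 and 100 FPKM. The 13 most abundant held 75.4% of the summed FPKM of the set in PD1, the middle group 17.8%, and the largest group of genes 6.77%. Median folds in the 3 groups were 7.26, 6.62 and 6.10 in this order. In PN1 the 13 genes ran from 28.2 to 1721 FPKM with a median of 194 FPKM. The middle group had a median of 26.3 FPKM there and the lowest group one of 4.68 FPKM. The added 1 in the ratio lowers the fold of genes near 0 in PN1, which are mostly those of the lowest group.

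Most of the folds lay between the limit of 4 and 8. The median fold was 6.50, with quartiles of 4.65 and 11.9. A fold of at least 8 was reached by 53 genes, of at least 16 by 28, of at least 32 by 11 and of at least 64 by 3. Just inside the limit stood 3 genes with folds of 4.001, 4.01 and 4.02, and just outside it 3 genes with folds of 3.98, 3.97 and 3.96. At the limit on abundance the last genes kept had 20.5, 20.5 and 20.5 FPKM in PD1, and the first ones left out for their level had 19.6, 19.4 and 19.1 FPKM with folds of 20.6, 6.81 and 4.05. The members nearest to a limit were thus barely different from their neighbours outside it.

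Against the whole table, a 4-fold lower level in PN1 was uncommon, and a 4-fold higher level was about as common. Of all 43456 genes, 274 (0.631%) were at least 4-fold lower and 301 (0.693%) at least 4-fold higher in PN1. Many of the 43456 could not reach 4-fold, because the added 1 holds the ratio near 1 for genes near 0 in both libraries. Only 27099 genes were above 0 in PD1 and 27545 in PN1. Among the 7863 genes of at least 20 FPKM in PD1, the 163 that met the rule before the miRNA targets were left out made up 2.07%. The mirror image of the rule, at least 20 FPKM in PN1 and at least 4-fold higher there, took 147 of 8001 genes, or 1.84%. The median log2 difference, PN1 minus PD1 on the FPKM + 1 scale, was -2.70 in the set, -0.02 over the genes of at least 20 FPKM in PD1, and 0.11 over the 21308 genes with a mean of at least 1 FPKM. The first of these is fixed below -2 by the rule, so nothing is read from it.

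The set and its mirror image differed mainly in their most abundant genes, and less in number or median level. Without listed targets the mirror set held 134 genes, with a median of 55.8 FPKM in PN1, close to the 57.7 FPKM of the 152 genes in PD1. Its most abundant gene stood at 676 FPKM in PN1, a level exceeded in PD1 by 18 of the 152 genes. The mirror set summed to 13957 FPKM in PN1, or 1.33% of that library, against 5.91% of PD1 for the 152 genes. With targets kept, 18 of the 99 genes of at least 1000 FPKM in PD1 (18.2%) were at least 4-fold lower in PN1, whereas 0 of the 113 genes of at least 1000 FPKM in PN1 were at least 4-fold higher there. Below this level the shares were close in both directions, with 2.81% and 2.64% at 100 to 1000 FPKM and 1.63% and 1.65% at 20 to 100 FPKM. These are counts over genes of 1 library per stage, without a test.

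FPKM values depend on the rest of the library, and 1 gene outside the set weighs on both. It was the most abundant gene of either library, with 112735 FPKM in PD1 and 58750 FPKM in PN1, or 10.3% and 5.59% of the summed FPKM. With this gene left out of the totals the 152 genes held 6.59% of PD1 and 0.723% of PN1.

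Gene models fell into those whose IDs carry the prefix Gb and those with another prefix, a property that the selection did not use. Models without the prefix made up 19 of the 152 genes (12.5%), against 2.56% of the genes of at least 20 FPKM in PD1 and 3.72% of all genes listed. The last 2 shares keep listed targets, and with targets kept these models were 19 of the 163 genes that met the rule. In the mirror set they made up 8 of 134 genes (5.97%). Read the other way, 9.45% of the 201 models without the prefix of at least 20 FPKM in PD1 met the rule, and 1.88% of the 7662 Gb models did with targets kept. Models without the prefix also met the mirror rule more often. There the shares were 3.83% of 209 such models of at least 20 FPKM in PN1 and 1.78% of 7792 Gb models. The models of the set without the prefix ran from 23.6 to 4879 FPKM in PD1 with a median of 75.6 FPKM, and the Gb models from 20.5 to 12391 FPKM with a median of 55.98 FPKM. In PN1 their medians were 10.7 and 6.81 FPKM, and 7 of 19 models without the prefix and 37 of 133 Gb models were still at 20 FPKM or more. The difference in these shares was not tested.

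The 11 listed miRNA targets that met the rule were 6.75% of the 163 genes, against 6.98% among all genes of at least 20 FPKM in PD1. The share of listed targets among the genes that met the rule was thus close to that among abundant genes in general. Leaving them out removed 1.72% of the summed FPKM of PD1, nearly all of it from a few genes. The most abundant of them was listed at 10852 FPKM in PD1 and 817 FPKM in PN1, 13.3-fold lower, and would have stood second in the set.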

How the data were processed

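Per the file headers, the gene table gives the authors' FPKM, with a single value for a gene in each library. The submitters' processing notes list Bowtie, TopHat, TopHat2 2.0.12 and Cufflinks 2.1.1. The reference build and the gene annotation were not stated in the sources used here. Of the columns of values, 2 carry the same heading and were not used. The list of 902 miRNA target genes was deposited without values.

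Absolute depth is unknown. Among 2379 genes above 0 and under 0.5 FPKM in both libraries, the commonest ratio of PN1 to PD1 values was 0.848, found for 449 genes. If these genes had equal numbers of fragments in both libraries, PN1 had 1.18 times the depth of PD1. That assumption was not tested.

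The rule was applied in Python 3.11.15 with pandas 2.3.3, and its code was checked on simulated data. IDs are printed for the 2 genes of the set most abundant in PD1. The genes, lists and limits were chosen with earlier results of these data known. Alternatives changed the pseudocount, the limits, the scaling and the treatment of listed targets.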

Additional observations from a re-analysis of the deposited data

How the results depend on the processing

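No paired analysis was possible because PD1 and PN1 were the only columns with a heading of their own, and with 1 library per stage none could be left out. The number of genes depended on the limits by construction: 87 genes with at least 50 FPKM in PD1, 259 with no minimum, 693 at a fold of at least 2 and 53 at a fold of at least 8. It ranged from 103 with a pseudocount of 5 to 193 with at least 10 FPKM in PD1 under the other settings. Median-of-ratios scaling, which lowers PN1 by a factor of 1.09, gave 170 genes, among them all 152 reported. Lowering every PN1 value can only add genes, so keeping all 152 was fixed in advance. Quantile normalization, which gives both libraries the same distribution of levels and can lose genes, gave 165. Of the 152 reported genes, 151 were among them. The numbers of genes under 1 FPKM and at 20 FPKM or more in PN1 stayed within 1.5-fold under every alternative run for them. So did the median difference. The number under 1 FPKM came nearest to this limit, with 15 genes against 10 under 0.5 FPKM. The shares of summed FPKM also stayed within 1.5-fold. They were rerun only with the most abundant gene of PD1 or of the set left out, not under other limits or scalings. The median log2 difference ranged from -2.25 with a pseudocount of 5 to -2.83 with one of 0.1. Levels under 1 FPKM in PN1 rest on an unknown number of fragments, which limits the folds of those 15 genes.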

Other observations

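The ID numbers of some genes of the set follow each other, a feature looked at only after the values had been seen. Of the 133 genes with Gb IDs, 14 differed by 1 in number from another gene of the set. In the mirror set this held for 12 of 126. The files do not say what the numbering stands for. In 6 of the 7 pairs of consecutive IDs the folds of both genes were within 1.80 times of each other. The exception was the pair with the highest level, in which one gene went from 2067 FPKM in PD1 to 342 FPKM in PN1 (6.03-fold lower) and the other from 232 to 3.93 FPKM (47.4-fold lower). The 1.80 was taken from these same pairs. Most folds of the set lay between 4 and 8, so unrelated members can also have close folds. Other pairs of members were not compared, and nothing is read from the closeness.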
